A study of Mus musculus with 12 samples.

Results

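The transcripts examined here were 10 marker genes of lymphocytes and of major histocompatibility complex (MHC) class II antigen presentation, followed across 12 mouse liver RNA-seq libraries. They were chosen by symbol, as *Cd3e*, *Cd3g*, *Cd8a* and *Nkg7* for T cells and cytotoxic lymphocytes, *Cd79a* and *Cd79b* for B cells, and *H2-Aa*, *H2-Ab1*, *H2-Eb1* and *Cd74* for class II presentation. All 10 were found among the 54838 genes of the count table. Livers of 12 C57BL/6J mice, 3 per group, had been sequenced. For 7 days the drinking water was plain or held 25 mM ZnSO4. The mice were then injected with PBS or with 200 µg dexamethasone (Dex), a synthetic glucocorticoid, and sampled 2 h later. The groups are water-PBS (HP, the control), zinc-PBS (ZP), water-Dex (HD) and zinc-Dex (ZD). No allele was altered in any group, the PBS injection was given to both groups without Dex, and the labels give no sex or age.

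T cells carry an antigen receptor that signals through the CD3 chains, of which *Cd3e* and *Cd3g* encode the epsilon and gamma subunits. *Cd8a* encodes a chain of the co-receptor of cytotoxic T cells, and *Nkg7* a granule membrane protein of cytotoxic T cells and natural killer (NK) cells. B cells signal through CD79A and CD79B, which pair beside the membrane immunoglobulin. MHC class II molecules present peptides to CD4+ T cells, with *H2-Aa* and *H2-Ab1* encoding the alpha and beta chains of I-A, *H2-Eb1* the beta chain of I-E, and *Cd74* the invariant chain that escorts them through the cell. Class II genes are transcribed in dendritic cells, B cells and macrophages under the coactivator CIITA, which docks on an RFX complex at the X box of their promoters, next to a Y box bound by NF-Y. In the liver the macrophages are Kupffer cells, and lymphocytes sit in the sinusoids. Glucocorticoids are known to act on lymphocyte traffic and survival.

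The libraries held 9091152 to 12303527 counts each, and 26191 genes had at least 1 count. Hepatocyte transcripts dominated every library, as in whole liver, with *Alb*, the gene of serum albumin, at 961000 to 1350000 normalized counts. Response to the injection was seen in 9 of 10 listed glucocorticoid receptor target genes, which were called higher with Dex. Among these, *Fkbp5*, which encodes a co-chaperone of the receptor, had 536 to 1490 normalized counts in the 6 PBS libraries and 7988 to 8673 in the 6 Dex libraries. A normalized count here is a raw count divided by the library's size factor.

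The 10 genes fell into an abundant and a scarce set. Per kilobase of exon and averaged over the 12 libraries, *Cd74* had 566 normalized counts (394 to 714 over libraries), *H2-Eb1* 151 (102 to 206), *H2-Ab1* 127 (87.8 to 169) and *H2-Aa* 117 (81.5 to 151). The ranges of the last 3 overlapped and so did not set them in an order, while every library had more *Cd74* per kilobase than any of them. The 6 lymphocyte genes lay far lower on the same per-kilobase scale, from 7.78 for *Nkg7* and 6.45 for *Cd79b* through 3.28 for *Cd79a* and 1.86 for *Cd3g* to 1.15 for *Cd3e* and 0.634 for *Cd8a*. Neighbours in this order had overlapping ranges over libraries. Among 26185 detected genes, the class II genes stood at percentiles 88.6 to 97 and the lymphocyte genes at percentiles 30.7 to 57.4 of the per-kilobase level.

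In raw reads, the class II genes had 180 to 1142 counts in every library, whereas no lymphocyte gene exceeded 17. *Cd8a* had 29 counts in all 12 libraries together and 3 counts or fewer in 8 of them. *Cd3e* had 57 counts in all, *Cd79a* 59, *Cd3g* 75, *Nkg7* 87 and *Cd79b* 115. Single values of the lymphocyte genes were therefore coarse. Intervals given for their summed counts cover counting error only.

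**Figure D1:**
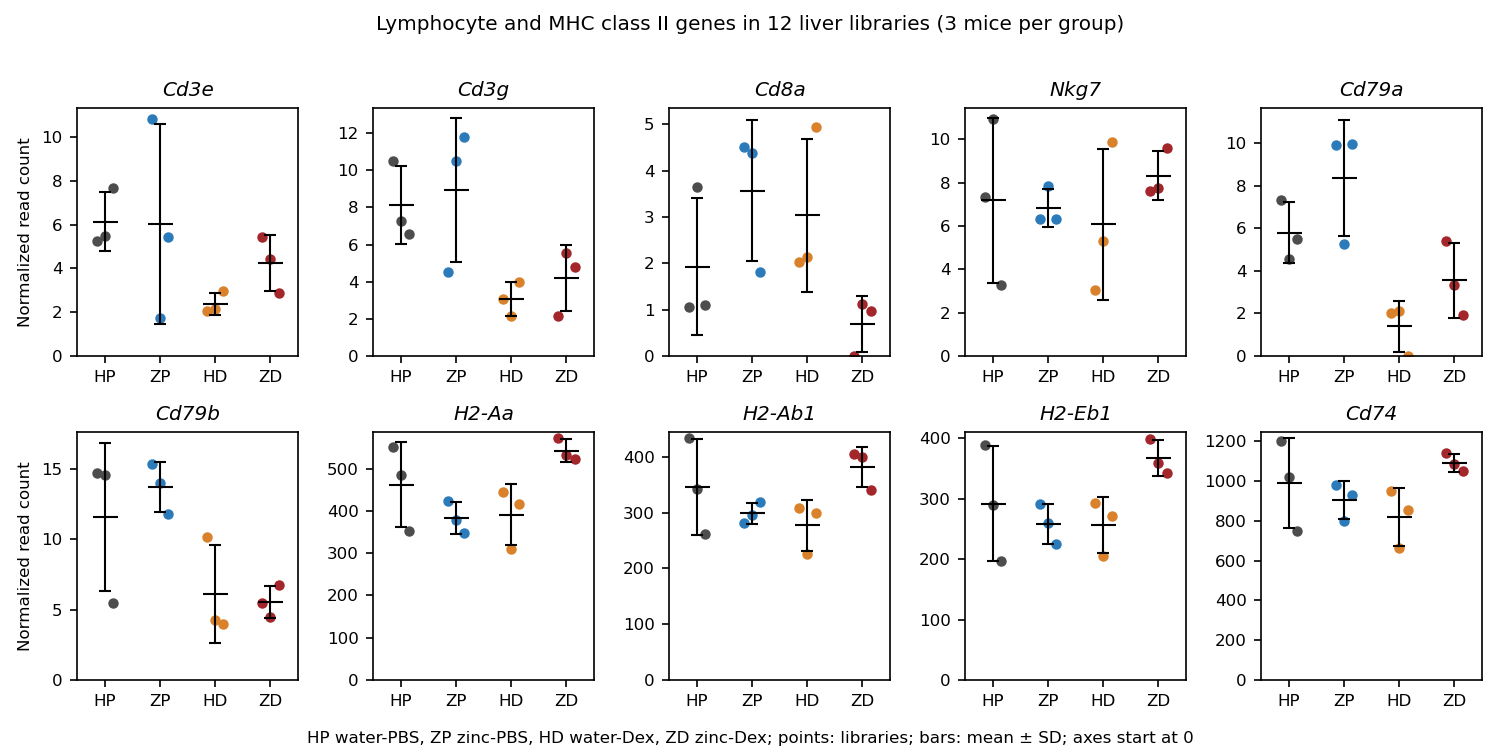
Normalized read counts of the 10 genes in each of the 12 libraries, by group, with points for libraries and bars for the mean ± SD of 3 mice, on linear axes that start at 0. The 4 class II genes were high in all 3 ZD libraries, and *Cd79a*, *Cd79b* and *Cd3g* were mostly lower in the Dex groups than in the PBS groups.

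*H2-Aa*, *H2-Ab1* and *H2-Eb1* lie in the class II region of chromosome 17 (GRCm38), at chr17:34282744-34287823 on the minus strand, chr17:34257689-34269419 on the plus strand and chr17:34305867-34316674 on the plus strand. RefSeq promoters, 250 bases before to 50 bases after the start of transcription, were at hand for 7 of the 10 genes, and those of an alpha and a beta chain gene are shown because both genes belong to the set that varied together. Capitals mark matches, on either strand, to ACNGATG, the core of the X1 element, and to GATTGG, the Y box:
H2-Aa promoter, chr17:34287774-34288073, minus strand: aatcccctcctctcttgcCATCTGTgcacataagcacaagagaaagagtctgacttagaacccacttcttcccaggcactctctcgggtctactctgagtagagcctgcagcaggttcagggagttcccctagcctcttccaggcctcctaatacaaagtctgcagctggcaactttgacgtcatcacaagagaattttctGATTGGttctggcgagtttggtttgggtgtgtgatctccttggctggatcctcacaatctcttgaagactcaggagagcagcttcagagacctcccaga
H2-Eb1 promoter, chr17:34305617-34305916, plus strand: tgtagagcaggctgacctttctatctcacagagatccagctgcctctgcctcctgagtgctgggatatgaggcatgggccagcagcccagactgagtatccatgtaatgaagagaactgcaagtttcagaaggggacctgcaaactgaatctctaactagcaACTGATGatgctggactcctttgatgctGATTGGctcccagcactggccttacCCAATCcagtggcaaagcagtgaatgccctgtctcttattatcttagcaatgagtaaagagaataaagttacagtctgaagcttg
In *H2-Eb1* the X1 core began 88 bases and the Y box 60 bases before the start, with 21 bases between them, and a second Y box match lay on the other strand. In *H2-Aa* the Y box began 49 bases before the start, and its only X1 core match was on the other strand, farther upstream. The X1 core letters were held by 9.85% and the Y box letters by 16.1% of 32817 promoters of the same length, and an X1 core followed by a Y box 10 to 30 bases on was held by 20 promoters, or 0.0609%, of 18 genes. These included *H2-Eb1* and the class II genes *H2-Eb2*, *H2-DMb1* and *H2-DMb2*. A match of letters is a description and not a binding site.

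The class II transcripts had their highest group means in the zinc-Dex livers. *H2-Aa* had 550, 484 and 353 normalized counts in HP, 423, 379 and 348 in ZP, 446, 310 and 418 in HD, and 572, 533 and 522 in ZD. *H2-Eb1* had 390, 289 and 198 in HP, 292, 260 and 225 in ZP, 293, 205 and 271 in HD, and 400, 360 and 343 in ZD. For both chains every ZD library was above every ZP and every HD library, and HP spanned nearly the whole range, with HP replicate 3 low and HP replicate 1 close to the ZD libraries.

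The other I-A chain and the invariant chain also had their highest means in ZD, although HP replicate 1 was the highest single library for both. *H2-Ab1* had 434, 343 and 261 normalized counts in HP, 283, 296 and 320 in ZP, 309, 226 and 299 in HD, and 406, 400 and 340 in ZD. *Cd74*, on chromosome 18 and with 12 exon bases shared with *Mir5107*, had 1199, 1019 and 748 in HP, 980, 796 and 930 in ZP, 947, 662 and 854 in HD, and 1138, 1084 and 1049 in ZD. HD replicate 2 was the lowest HD library for all 4 genes. Summed over the 4 genes, the means were 2089 ± 508 (SD, n = 3) in HP, 1844 ± 125 in ZP, 1746 ± 308 in HD and 2383 ± 131 in ZD.

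Whether zinc changed these transcripts was asked first in PBS-injected mice. The log2 fold changes of ZP against HP were -0.27 for *H2-Aa*, -0.21 for *H2-Ab1*, -0.18 for *H2-Eb1* and -0.13 for *Cd74*, and all 95% intervals included 0. Genes were called where the adjusted p was under 0.05 and the log2 fold change was beyond 0.8 in either direction. DESeq2 called no gene of the 10, against 0.138% of 12307 genes tested. None had an unadjusted p under 0.05, and edgeR called 0. The 6 lymphocyte genes were too low to enter this test, in which the lowest mean tested was 11.6 normalized counts.

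In Dex-injected mice, where ZD was set against HD, the class II genes were 1.33 to 1.43 times as high with zinc. The log2 fold changes were 0.47 for *H2-Aa* (SE 0.17, 95% interval 0.14 to 0.80, adjusted p = 0.173), 0.46 for *H2-Ab1* (SE 0.17, adjusted p = 0.223), 0.52 for *H2-Eb1* (SE 0.21, adjusted p = 0.268) and 0.41 for *Cd74* (SE 0.17, adjusted p = 0.280). All 4 had an unadjusted p under 0.05, as had 1375 of all genes with a p value, including those too low for adjustment. Of the 10 members DESeq2 tested 5 and edgeR 6, the others being too low. Neither called any, against 0.469% of 12786 genes tested by DESeq2. Each of the 4 had all ZD libraries above all HD libraries, a pattern held by 10.2% of the genes tested. Their median log2 fold change was 0.47, beside 0.00 over all genes tested.

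Dex was set against PBS within each water group. In zinc mice, ZD against ZP, the log2 fold change was 0.50 for *H2-Aa* (SE 0.17, adjusted p = 0.0172), 0.35 for *H2-Ab1* (adjusted p = 0.152), 0.51 for *H2-Eb1* (adjusted p = 0.0659) and 0.27 for *Cd74* (adjusted p = 0.273). *H2-Aa* passed the adjusted p but not the fold threshold, so that DESeq2 called 0 members of 10, against 9.68% of 15657 genes. Of the 10, 4 had an unadjusted p under 0.05, as had 4646 of all genes with a p value, and edgeR called 1, *Cd79b* (log2 fold change -1.28, adjusted p = 0.0379). All 4 class II genes had every ZD library above every ZP library, as had 19.5% of the genes tested. Total-count scaling changed the size factors by an amount that corresponds to a log2 shift of -0.23 for all genes here. With it the class II values were 0.27 for *H2-Aa* (adjusted p = 0.186), 0.12 for *H2-Ab1*, 0.28 for *H2-Eb1* and 0.05 for *Cd74*.

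In water mice, HD against HP, the same 4 genes had log2 fold changes of -0.24, -0.32, -0.19 and -0.27, with adjusted p values of 0.206 to 0.604 and groups that overlapped. DESeq2, which tested 9 of the 10 genes there, and edgeR, which tested 6, called 0, against 9.68% of 14221 genes tested by DESeq2. Of the 10, 1 gene, *Cd79a*, had an unadjusted p under 0.05, as had 4537 of all genes with a p value. With total-count scaling the class II values were -0.38 to -0.51, and without HP replicate 1 that of *H2-Eb1* was 0.07. The lowest adjusted p over the other fits was 0.0125 for *H2-Ab1*, 0.0158 for *Cd74*, 0.028 for *H2-Aa* and 0.121 for *H2-Eb1*. The fold threshold was not passed, so none of these genes was called in any fit. The difference between the Dex effects in zinc and in water mice, the interaction, was 0.74 for *H2-Aa* (95% interval 0.28 to 1.21, unadjusted p = 0.00169), 0.67 for *H2-Ab1* (0.19 to 1.15), 0.69 for *H2-Eb1* (0.12 to 1.27) and 0.54 for *Cd74* (unadjusted p = 0.0203). None passed adjustment over 26185 genes, of which DESeq2 called 0.0191%, and edgeR called 0 of the 10. The unadjusted p was under 0.05 for these 4, for none of the 6 lymphocyte genes and for 522 of all genes tested. Single HP libraries moved these values in both directions. Without HP replicate 3 *H2-Aa* was called for the interaction (log2 0.90, adjusted p = 0.00942), and without HP replicate 1 the interaction was 0.48 for *H2-Ab1*, 0.43 for *H2-Eb1* and 0.38 for *Cd74*.

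Against the control, ZD had class II log2 fold changes of 0.14 to 0.33, and 0 of the 10 genes were called by DESeq2 or edgeR or had an unadjusted p under 0.05, against 7.24% of 21401 genes tested. Averaged over both injections, the zinc differences of the class II genes were 0.10 to 0.17, again with 0 members called by either tool or at an unadjusted p under 0.05, against 0.333% of 12307 genes tested. DESeq2 tested 4 of the 10 members in that comparison and edgeR 6. These comparisons share libraries with the others and are not separate evidence.

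**Figure D2:**
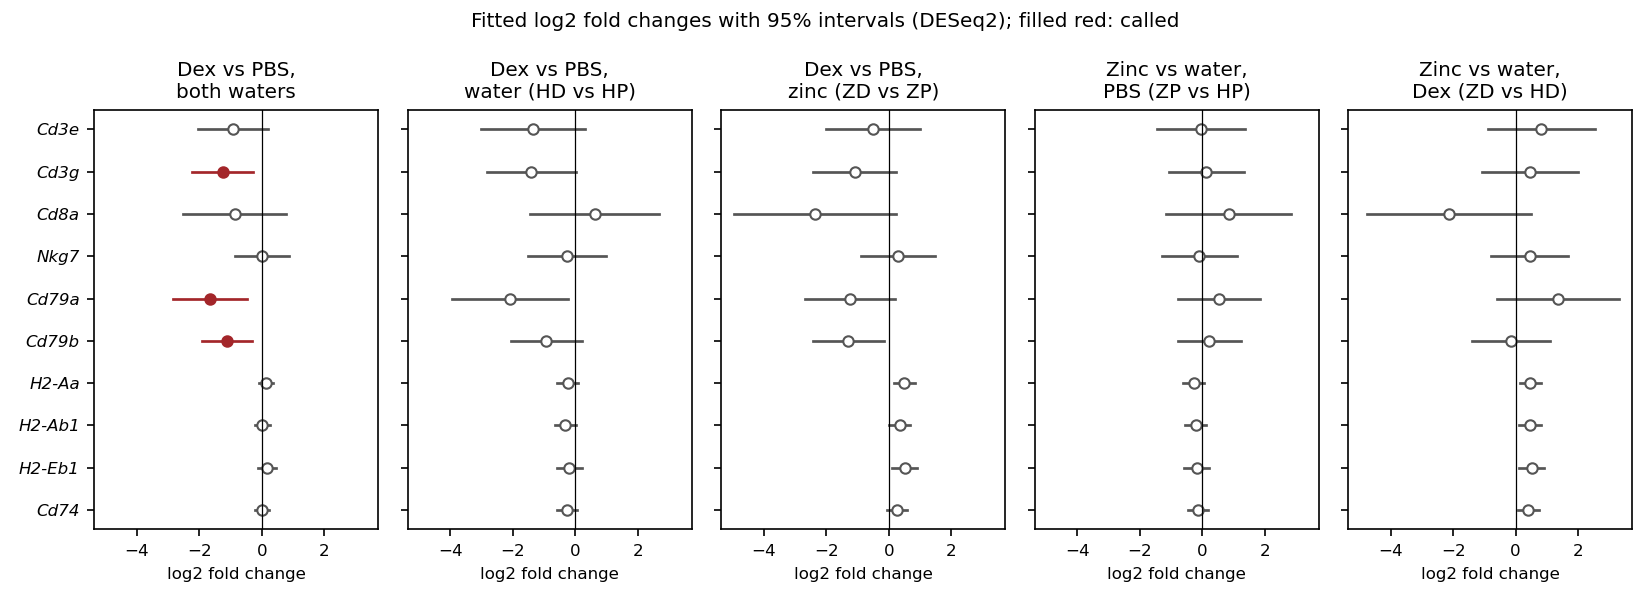
DESeq2 log2 fold changes of the 10 genes (x axis, points) with 95% intervals (lines) in 5 comparisons, with called genes in filled red. Intervals are wide for the 6 lymphocyte genes and narrow for the 4 class II genes, and the called genes are *Cd3g*, *Cd79a* and *Cd79b* in the averaged Dex comparison.

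The class II transcripts varied together. After each group's mean was subtracted, their pairwise Pearson r over the 12 libraries was 0.84 to 0.97, a description over libraries that share size factors and tissue sampling. The ratio of *Cd74* to *H2-Ab1* stayed at 2.85 to 3.01 over the 4 group means, and that of *H2-Aa* to *H2-Ab1* at 1.28 to 1.42. By the same measure *Cd79a* and *Cd79b* had r = 0.21 and *Cd3e* and *Cd3g* r = -0.57, at counts where sampling error is large.

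Averaged over both waters, no difference of Dex from PBS was detected for the class II transcripts, while several other genes of the class II pathway fell. The averaged log2 differences of Dex against PBS were 0.13 (95% interval -0.10 to 0.36) for *H2-Aa*, 0.02 (-0.22 to 0.26) for *H2-Ab1*, 0.16 (-0.13 to 0.45) for *H2-Eb1* and 0.00 (-0.23 to 0.23) for *Cd74*. Their signs are not fixed, since the size factors from total counts correspond to a log2 shift of -0.21 for all genes in this comparison. In the list of other class II pathway genes, 4 were called lower and 1 higher of 18 tested, where 10.3% of 17093 genes were called and 5.49% were called lower. The list's median was -0.37, beside -0.02 over all genes tested.

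*Ciita*, the master coactivator of class II genes, had 16.3 to 30.5 normalized counts in the 6 PBS libraries and 5.08 to 12.8 in the 6 Dex libraries. The groups did not overlap, and *Ciita* fell by 1.39 on the log2 scale (SE 0.31, adjusted p = 5.89e-05). *Rfx5*, a DNA-binding subunit of the RFX complex, had 76.7 to 98.7 with PBS and 31.9 to 46.7 with Dex, and fell by 1.07 (SE 0.16, adjusted p = 1.36e-10). The fall was similar within each water group, at -1.03 in water mice and -1.11 in zinc mice.

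*Rfxank*, another RFX subunit, had 69.7 to 124 normalized counts with PBS and 41.5 to 57.9 with Dex, and was called lower in water mice (log2 -1.01, adjusted p = 5.22e-05) and not in zinc mice (log2 -0.43, adjusted p = 0.17). No gene of the lists was called for the interaction, so a difference between the water groups was not shown. *Cd83*, a surface protein of activated antigen-presenting cells and B cells, fell by 3.57 (SE 0.44, adjusted p = 1.07e-14), from 20.9 to 74.9 with PBS to 1.06 to 5.43 with Dex. *Lgmn*, a lysosomal protease and the most abundant gene of the list, had a log2 fold change of -0.20 and was not called.

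*Ciita*, *Rfx5* and *Rfxank* each share exon bases with a gene on the opposite strand (*Dexi*, *B230398E01Rik* and *Nr2c2ap*), and the strand setting of the counting is not stated, so their levels are uncertain to that extent. The counts of called genes in this list were 3 to 5 lower and 1 higher when single libraries were left out, and 4 lower and 1 higher of 14 with edgeR. *H2-Ea-ps*, the pseudogene of the I-E alpha chain in this strain, was at 0 in all 12 libraries.

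**Figure D3:**
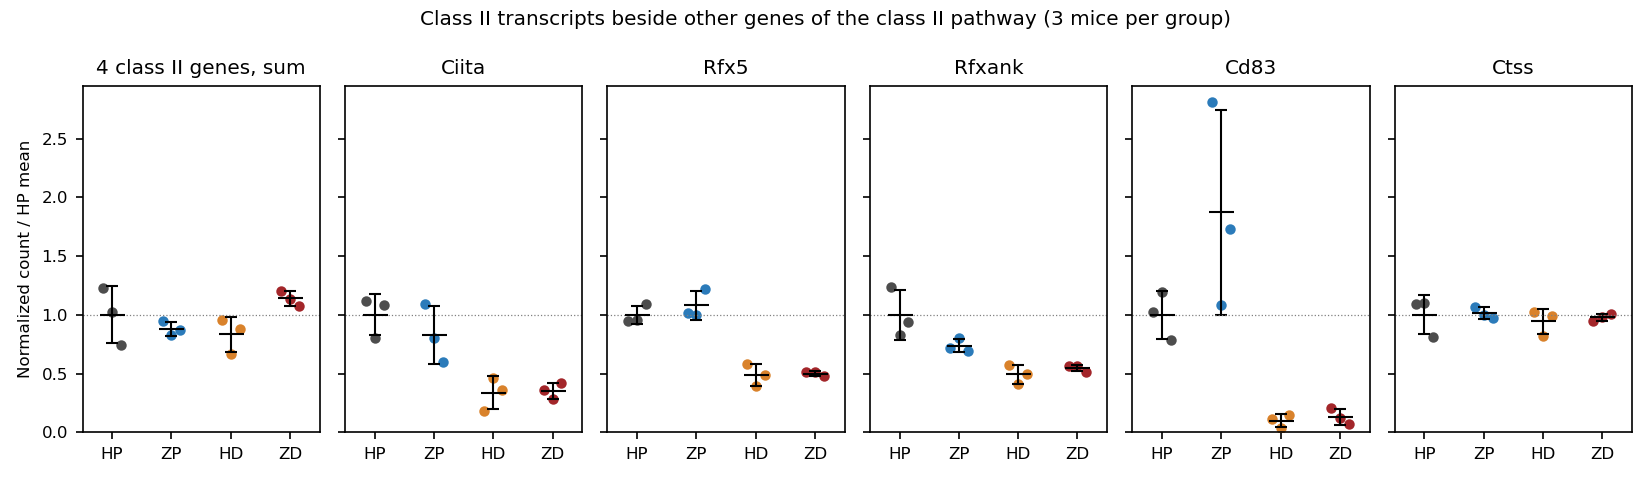
Normalized counts divided by the HP mean (y axis, linear from 0) for the sum of the 4 class II genes and for *Ciita*, *Rfx5*, *Rfxank*, *Cd83* and *Ctss*, a lysosomal protease, with points for libraries and bars for mean ± SD of 3 mice per group. *Ciita*, *Rfx5*, *Rfxank* and *Cd83* lie lower in all 6 Dex libraries than in any PBS library, whereas the class II sum is highest in ZD.

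The B cell receptor genes were lower after Dex. *Cd79a* (chr7:24897381-24902197, plus strand) had 7, 5 and 5 raw counts in HP, 11, 6 and 11 in ZP, 2, 2 and 0 in HD, and 5, 3 and 2 in ZD. The Dex and PBS libraries met at 5 counts, and the library at 0 allows up to 3 counts by the one-sided 95% limit for a count of 0. In all it had 45 counts with PBS (exact Poisson 95% interval 32.8 to 60.2) and 14 with Dex (7.65 to 23.5).

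*Cd79b* (chr11:106311341-106314762, minus strand) had 14, 16 and 5 raw counts in HP, 17, 16 and 13 in ZP, 10, 4 and 4 in HD, and 5, 4 and 7 in ZD, or 81 with PBS (64.3 to 101) and 34 with Dex (23.5 to 47.5). HP replicate 3 lay within the Dex range. All ZD libraries were below all ZP libraries, a pattern whose share over all genes was not computed. With Dex averaged over both waters, *Cd79a* fell by 1.66 on the log2 scale (SE 0.60, 95% interval -2.84 to -0.49, adjusted p = 0.0227) and *Cd79b* by 1.12 (SE 0.41, interval -1.92 to -0.31, adjusted p = 0.0255). In bulk liver, fewer cells of a type and less RNA per cell cannot be told apart.

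Of the 10 genes, *Cd79a*, *Cd79b* and *Cd3g* were called in the averaged Dex comparison, all 3 lower, where 10.3% of 17093 genes tested were called and 5.49% were called lower. The same 3 genes were called with TMM factors and with total-count scaling. edgeR, whose filter left 6 members, called *Cd79b* and *Cd3g*, and without independent filtering *Cd3g* was no longer called (adjusted p = 0.0639). The calls rested on single libraries: none of the 3 was called without HP replicate 1 or without HD replicate 3, 1 was called without HP replicate 2, any of the 3 ZP replicates, HD replicate 2, or ZD replicate 1 or 3, and 2 were called without HP replicate 3, HD replicate 1 or ZD replicate 2. Over these 12 fits the log2 fold change stayed between -1.88 and -1.36 for *Cd79a* and between -1.40 and -0.99 for *Cd79b*.

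Within single water groups, *Cd79a* had a log2 fold change of -2.08 in water mice (adjusted p = 0.106) and -1.25 in zinc mice (adjusted p = 0.258), and *Cd79b* of -0.93 (adjusted p = 0.278) and -1.30 (adjusted p = 0.101). None was called by DESeq2. The interaction was 0.83 for *Cd79a* (95% interval -1.52 to 3.18) and -0.37 for *Cd79b* (-1.97 to 1.24), which leaves differences of either sign within the error.

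The list of other B cell genes held 19. Of 18 tested in the averaged comparison, 10 were called lower and 0 higher, where 10.3% of 17093 genes tested were called and 5.49% were called lower. The median log2 fold change was -1.16 over the list. With the filter of at least 10 counts in at least 3 libraries, 3 of 7 genes tested were called lower, with a median of -0.63. *Ms4a1*, which encodes CD20, had 6.34 to 13.5 normalized counts with PBS and 0 to 3.26 with Dex, and fell by 2.24 (SE 0.59, adjusted p = 0.000861). *Igkc*, the kappa constant region, fell by 1.07 (adjusted p = 0.000162), *Ighd*, the IgD heavy chain, by 1.16 (adjusted p = 0.0036) and *Blnk*, an adaptor of B cell receptor signalling, by 1.03 (adjusted p = 0.0125).

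*Ighm*, the IgM heavy chain and the most abundant gene of the list, had a log2 fold change of -0.63 (adjusted p = 0.00612) and stayed within the fold threshold. The summed level of the 19 genes was 257 to 446 normalized counts with PBS and 164 to 239 with Dex, without overlap. Leaving out single libraries left 8 to 10 genes called lower, and edgeR called 4 of the 8 that passed its filter. Of 9 plasma cell genes *Igha*, the IgA heavy chain, was called lower (log2 -1.06, adjusted p = 0.0125), with 113.7 and 98.8 normalized counts in ZP replicates 1 and 2 against 24.2 to 38.9 in the other PBS libraries.

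The T cell and cytotoxic genes were mixed. *Cd3g* (chr9:44969572-44980431, minus strand) had 10, 8 and 6 raw counts in HP, 5, 12 and 13 in ZP, 3, 2 and 4 in HD, and 2, 5 and 5 in ZD, or 54 with PBS (40.6 to 70.5) and 21 with Dex (13 to 32.1). It fell by 1.25 with Dex averaged over both waters (SE 0.50, interval -2.22 to -0.28, adjusted p = 0.0418). *Cd3e* (chr9:44998740-45009627, minus strand) had 5, 6 and 7 in HP, 12, 2 and 6 in ZP, 2, 2 and 3 in HD, and 5, 4 and 3 in ZD. All 3 HD libraries were below all 3 HP libraries for both CD3 genes, while ZP replicate 2 was as low as the Dex libraries for *Cd3e*. The share of all genes with HD below HP in this way was not computed, so the separation is a description at few counts.

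*Cd3e* was not called with Dex averaged over both waters (log2 -0.93, SE 0.57, adjusted p = 0.234), and its exons share 135 bases with *Gm48719* on the opposite strand. *Cd8a* (chr6:71373427-71379173, plus strand) had 1, 4 and 1 raw counts in HP, 5, 5 and 2 in ZP, 2, 2 and 5 in HD, and 0, 1 and 1 in ZD. Its 2 counts over the ZD libraries carry an exact Poisson 95% interval of 0.242 to 7.22. Its averaged Dex difference of -0.87 had an interval of -2.52 to 0.79, so that no averaged difference was detectable at this depth. All ZD libraries were below all ZP libraries (log2 -2.36, adjusted p = 0.227) and below all HD libraries (log2 -2.13, too low to be tested). The shares of all genes with these separations were not computed, and at 0 to 5 counts they are a description only. The interaction was -2.98, with a 95% interval of -6.28 to 0.33, and was not called.

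*Nkg7* (chr7:43437073-43438249, plus strand) had 7, 12 and 3 raw counts in HP, 7, 9 and 7 in ZP, 3, 5 and 10 in HD, and 7, 7 and 10 in ZD. The groups overlapped, with 45 counts with PBS (32.8 to 60.2) and 42 with Dex (30.3 to 56.8). Its averaged Dex difference was 0.01 on the log2 scale, with a 95% interval of -0.84 to 0.87. Over the 4 T cell and cytotoxic genes the median was -0.90, with 1 called.

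The list of other T cell genes held 22. Of 21 tested in the averaged Dex comparison 1 was called lower and 1 higher, with a median of -0.24 over the list. Over all 17093 genes tested, 10.3% were called and 5.49% were called lower. *Tcf7*, a transcription factor of naive and memory T cells, fell by 0.88 (SE 0.20, adjusted p = 0.000123), from 65.6 to 153 normalized counts with PBS to 41.1 to 61.9 with Dex. Without ZP replicate 3, the library with 153, no gene of the list was called lower. *Il7r*, the interleukin 7 receptor, rose by 1.74 (SE 0.36, adjusted p = 1.26e-05), from 3.15 to 10.9 to 14.9 to 24.7. *Zap70*, the kinase of the T cell receptor and the most abundant of the list, was not called (log2 -0.33, adjusted p = 0.131).

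The further NK and cytotoxic genes had 0 of 11 tested called by DESeq2 and 0 by edgeR, 1 at an unadjusted p under 0.05, and a median of -0.38 over 15 genes, which was 0.04 over the 11 tested. Their most abundant gene, *Il2rb*, a receptor chain for interleukins 2 and 15, had 38.5 to 59.6 normalized counts with PBS and 42.5 to 53.3 with Dex. The groups overlapped and differed by less than the spread between libraries.

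No gene of these lists was called for zinc. In the zinc comparison with PBS, that with Dex and that averaged over both, DESeq2 and edgeR called 0 of the 204 further listed genes, and 15, 10 and 18 of them had an unadjusted p under 0.05. Of the 204, edgeR tested 131, and some were also too low for the DESeq2 test. *Cd79a* had the largest averaged zinc difference among the lymphocyte members, at 0.95 on the log2 scale with a 95% interval of -0.23 to 2.13, at a level below that entered into the test.

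**Figure D4:**
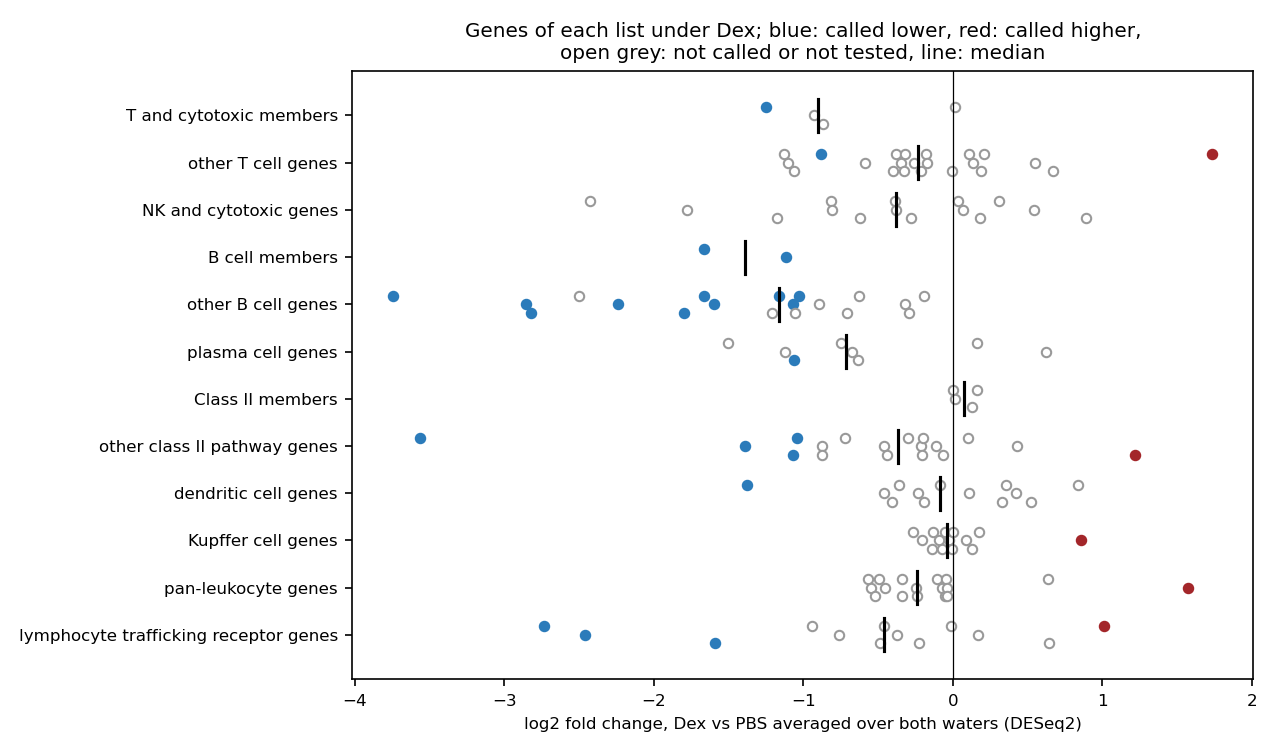
DESeq2 log2 fold change of each gene with Dex against PBS averaged over both waters (x axis), by gene list (y axis), with called genes in blue (lower) or red (higher) and list medians as black lines. B cell genes lie lowest, with medians of -1.39 for the 2 members and -1.16 for the other B cell genes, while the class II members lie at 0.07.

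Markers of other cells were followed beside these results, and their part in them was not tested. The summed level of 14 Kupffer cell genes was 7180 to 9932 normalized counts with PBS and 8199 to 10220 with Dex, and *Clec4f*, a Kupffer cell lectin, differed by 0.00 on the log2 scale. The sum of 13 dendritic cell genes was 264 to 328 with PBS and 215 to 301 with Dex. Their median log2 fold change was -0.09, with 7 genes below and 6 above 0. DESeq2 called 1 of the 13, beside 10.3% of all genes tested, and edgeR called 0 of the 6 it tested. The gene called was *Xcr1*, a receptor of cross-presenting dendritic cells, which was lower (log2 -1.37, adjusted p = 0.0444). The sum of 17 pan-leukocyte genes was 1464 to 1863 with PBS and 1351 to 1724 with Dex, with a median log2 fold change of -0.24 over the list. Of these 17 genes 15 lay below 0, 6 had an adjusted p under 0.05 at any fold, and the one called, *Cytip*, an adaptor protein of leukocytes, went against the rest and rose by 1.57. The sum of 9 hepatocyte genes was 1309000 to 1551000 with PBS and 1698000 to 1885000 with Dex, without overlap, and all 9 lay above 0, with a median of 0.24 and 7 at an adjusted p under 0.05.

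In zinc-Dex livers, where the class II sum was 2254 to 2517, the Kupffer cell sum was 8358 to 9368, the dendritic cell sum 255 to 277 and the other B cell sum 203 to 239. In water-Dex livers, with a class II sum of 1402 to 1995, these were 8199 to 10220, 215 to 301 and 164 to 171. The Kupffer and dendritic cell ranges overlapped between the groups, and the other B cell ranges did not. Of single genes tested, 10.2% had every ZD library above every HD library. The sum of the 2 B cell members overlapped, at 7.78 to 10.9 in ZD and 3.96 to 12.2 in HD. In zinc-PBS livers the other B cell sum was 262.5 to 445.8, above that in ZD, while the class II sum was 1731 to 1978, below that in ZD. HP replicate 3, low for the class II genes, was the lowest PBS library for many sums and not only for the Kupffer cell sum. It was also lowest for the hepatocyte, sinusoidal endothelial, pan-leukocyte, dendritic cell, monocyte and neutrophil, other B cell and other class II pathway sums. For the lymphocyte trafficking receptor and red blood cell sums it was the highest PBS library. Of 8 listed lymph node and spleen stroma genes 5 were matched, and of these *Madcam1* and *Tlx1* were at 0 in all libraries. The sum of the 5 was 45.2 to 117 normalized counts with PBS and 42.5 to 200 with Dex. *Cxcl13*, the most abundant, reached 197 in HD replicate 1. In that library *Cd79b* had 10 raw counts, against 4 and 4 in the other HD libraries, and *Cd79a* had 2, against 2 and 0. A part of such tissue in these values was not tested.

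Among the 13 lymphocyte trafficking receptor genes, 3 were called lower and 1 higher with Dex averaged over both waters. Of 17093 genes tested there, 10.3% were called and 5.49% were called lower. *S1pr5*, a sphingosine 1-phosphate receptor of NK cells, fell by 2.73 (SE 0.37, adjusted p = 2.9e-12), from 24.2 to 54.9 normalized counts with PBS to 2.22 to 8.65 with Dex. *Ccr2*, a chemokine receptor of monocytes and some lymphocytes, fell by 1.59 (adjusted p = 2.01e-06), and *Klf2*, a transcription factor of quiescent T cells and of endothelium, rose by 1.01 (adjusted p = 8.17e-10). *S1pr1*, the most abundant of the list and also an endothelial gene, had a log2 fold change of -0.49 and was not called.

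The transcripts most like the class II genes were sought among 9570 genes whose mean reached 50 normalized counts, by Pearson r of the deviations from group means over 12 libraries. The highest were *Mapkap1* (r = 0.98), *Pip4k2a* (0.95), *Lilra5* (0.94), *Xkr9* (0.93) and *Ms4a6b* (0.92). With the group means left in, r was lower, at 0.37 for *Mapkap1*, 0.57 for *Pip4k2a*, 0.57 for *Lilra5*, 0.28 for *Xkr9* and 0.37 for *Ms4a6b*. For the mean of the 6 lymphocyte genes they were *Clec1b* (0.94), *Etv6* (0.94), *Fkbp5* (0.93), *Ppp1r15a* (0.93) and *Adamts15* (0.93). Without subtraction of the group means, r was -0.57 for *Clec1b*, 0.72 for *Etv6*, -0.80 for *Fkbp5*, -0.63 for *Ppp1r15a* and -0.74 for *Adamts15*, so that 4 of these 5 genes ran opposite to the lymphocyte genes over the 12 libraries as a whole. These are the highest of many correlations over few libraries and are given as a description.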

How the data were processed

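Total RNA of 12 C57BL/6J mouse livers was sequenced single-end from stranded TruSeq libraries. The authors mapped reads to mm10 with HISAT2 2.0.4 and deposited raw counts per Ensembl gene made by featureCounts without multimapping reads, so genes with near-identical copies may be undercounted. The annotation release and strand setting are not given in the sources used here. Columns were assigned to groups from the labels. Symbols and coordinates came from GENCODE M21 (54809 of 54838 identifiers), and 216 of 219 listed genes were found. The promoters came from RefSeq (GRCm38.p6).

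All 12 libraries were fitted together in DESeq2 1.42.0 (R 4.3.3) with 1 coefficient per group, size factors, Wald tests, default independent filtering and Cook filter, and p values adjusted over all genes (Benjamini-Hochberg). The call needed an adjusted p under 0.05 and a log2 fold change beyond 0.8 in size. The other fits used edgeR 4.0.16 (quasi-likelihood), TMM or total-count scaling, a filter of at least 10 counts in at least 3 libraries, no independent or Cook filter, a replicate block, no fold threshold, only the libraries compared, and each library left out. The tests were also run on simulated counts with the same spread for all genes and no changed gene as scarce as *Cd8a*, *Cd3e* or *Cd79a*. That run does not show how the tests perform on these 3 genes. Chi-square per degree of freedom between replicates was 5.7 to 18.8, so no library was a copy. The labels call them biological replicates.

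The members and lists were chosen with earlier results of these data known. The text names all members and, per list, the most abundant gene and up to 4 called genes of highest mean level. *Ctss*, *H2-Ea-ps* and the genes at 0 were named outside this rule after their values were seen, as were genes named for overlaps or promoter matches.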

Additional observations from a re-analysis of the deposited data

How the results depend on the processing

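Of 1214 values recomputed, 1185 kept their side of the threshold and their direction, 3 passed it newly, 26 lost it and 0 turned a called direction, while 48 values that were not called changed sign. Members called with Dex averaged over both waters were 3, with 1 in the fit with the replicate block and 0 to 2 over 12 fits with a library left out. Members called with Dex in zinc mice were 0, but 1 with edgeR and 1 with total-count scaling (both *Cd79b*) and 1 with no fold threshold (*H2-Aa*). The interaction called 0 to 1 member with a library left out (*H2-Aa* without HP replicate 3). Members called in the other comparisons stayed at 0 in every fit run.

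Same-numbered libraries of different groups had correlations of deviations of -0.20 to 0.19 (median 0.03, 1 of 18 above 0.1), and 3 of 12 libraries correlated best with their own number, so the numbers were not taken as pairs. The filter of at least 10 counts in at least 3 libraries left 7 of the 10 members and 13255 genes, and edgeR's filter left 6 and 13178. Depth limits the lymphocyte genes, of which *Cd8a* had 3 counts or fewer in 8 of 12 libraries. The cause of these changes was not tested beyond the loss of libraries and genes from the fits.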

Other observations

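Lists of other liver cells, followed beside the lymphocyte and class II genes, gave the values below with Dex averaged over both waters. In that comparison 10.3% of 17093 genes tested were called and 5.49% were called lower. Of 9 sinusoidal endothelial cell genes 1 was called higher and 2 lower, with *Lyve1*, a hyaluronan receptor, rising by 2.67 on the log2 scale (SE 0.10, adjusted p = 4.83e-155), from 116 to 182 normalized counts with PBS to 893 to 1108 with Dex. *Kdr*, a VEGF receptor, fell by 1.20 and *Gpr182* by 0.91, while the summed level of the 9 genes was 5113 to 5535 with PBS and 5061 to 5700 with Dex. Of 14 Kupffer cell genes *Cd163*, a haemoglobin scavenger receptor, was called higher, by 0.86 (SE 0.10, adjusted p = 8.97e-15).

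DESeq2 called 0 of 10 monocyte and neutrophil genes tested, with 2 at an unadjusted p under 0.05 and 1 called lower by edgeR. DESeq2 and edgeR called 0 of 9 hepatocyte genes, 0 of 10 cholangiocyte and stellate cell genes and 0 of 5 red blood cell genes tested, although 7, 4 and 4 of them had an adjusted p under 0.05 with DESeq2 at any fold, and the same numbers an unadjusted p under 0.05. The red blood cell sum was 779 to 1562 with PBS and 1215 to 2136 with Dex, and *Hbb-bs*, a beta globin, differed by 0.66 (adjusted p = 0.000578), within the fold threshold.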
